A study of Mus musculus with 17 samples.

Results

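Livers of mice that received both a high-fat diet (HFD) and a single binge of ethanol (HFD+1B, 5 mice) were set against livers of mice that received neither (chow, 4 mice). These 9 arrays, 1 mouse each, were chosen from the 17 of the series by their sample titles, and no measured value entered the choice. All mice were male, of the strain C57BL/6N by the labels and C57BL/6J by the methods, with no engineered allele named, and their age was not given in the sources used here. HFD+1B mice ate for 3 months a diet with 60% of its calories as fat and then had 1 gavage of ethanol at 5 g/kg. Chow mice ate chow for the same time and had a gavage of isocaloric maltose, so gavage itself was common to both groups. The other 8 arrays held 4 mice with chow and ethanol (1B) and 4 with HFD and maltose (HFD). All livers were taken 9 hours after the gavage, so each value shows a single time point. Liver complementary DNA carried Cy5, and a common reference RNA, described in the labels both as assorted mouse RNA and as liver, carried Cy3 on every array.

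The liver takes up, makes and stores fat, secretes most plasma proteins, and clears ethanol through alcohol dehydrogenases, the cytochrome P450 enzyme CYP2E1 and catalase. Surplus fat is packed into lipid droplets coated by perilipin and CIDE proteins. Under metal, oxidative or amino acid stress hepatocytes switch on metallothioneins, NRF2 targets and the integrated stress response, while many of their specialised genes, among them P450 enzymes and the sex-biased genes driven by growth hormone, depend on a network of liver transcription factors.

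Of 41174 probes, 34650 exceeded background clearly on 4 or more arrays and were tested, which gave 19348 genes at 1 probe each. All values below are log2 ratios of liver to reference, and a difference of 1 is a doubling. The words rose and fell are kept for genes with limma adjusted p-values no higher than 0.05, by Benjamini-Hochberg over all tested probes. These p-values measure the spread between these mice at 1 time point. The tissue was checked by 10 hepatocyte markers. All 10 were well above background on all 17 arrays, and 9 of them lay above the 98th percentile of brightness among genes, with Ttr at the 89.4th. Probes for ribosomal RNA were low on the HFD arrays, from -3.81 to -2.15 per array against 0.22 to 0.59 on chow and -1.03 to 1.12 on HFD+1B arrays. That difference touches comparisons with HFD, and its part in them was not tested. In bulk liver, fewer cells of a type and less RNA per cell cannot be told apart.

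In HFD+1B against chow, 1721 genes rose (8.89% of those tested) and 1432 fell (7.40%). Changes of at least 2-fold were fewer, with 352 genes up (1.82%) and 229 down (1.18%). Higher genes made up 54.6% of the calls. When each array was centred on its median in place of loess, 1601 genes rose and 815 fell, so that higher genes made up 66.3%, while the median of all genes moved by 0.04. The count of falls thus moved more with the scaling than the count of rises. In the 1721 genes that rose, the median difference was 0.63 in HFD+1B, 0.19 in 1B and 0.29 in HFD, each against the same chow arrays. The corresponding medians in the 1432 genes that fell were -0.57, -0.24 and -0.22. By the same test, 404 genes were higher (2.09%) and 395 lower (2.04%) in 1B than in chow, and 870 higher (4.50%) and 1252 lower (6.47%) in HFD than in chow. Since the genes were picked for their change in HFD+1B, these medians are only a description. Of all 19348 genes, 1578 had every HFD+1B mouse above every chow mouse and 1446 had every HFD+1B mouse below. Most genes named below were chosen for large differences that passed, so a lack of overlap in them is a description only.

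HFD+1B exceeded HFD in 2122 genes (11%) and lay below it in 1627 (8.41%), and for 1B these counts were 1215 (6.28%) and 996 (5.15%). The effect of ethanol on HFD differed from its effect on chow, by the interaction term of limma, in 850 genes (4.39%). HFD+1B stood above each of the 3 other groups in 381 genes (1.97%) and below each of them in 307 (1.59%). These counts leaned on single mice. Without HFD+1B mouse 4 they were 244 and 185, and without 1B mouse 3 the count of lower genes was 203. Median centring gave 518 higher and 76 lower genes, 87.2% higher against 55.4%.

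The lists below were also counted in other ways. From Cy5 signal alone, without the reference channel, 688 genes rose and 581 fell, and 38 of the 76 list counts (rises and falls of each list) moved by over 1.5 times. With the test of the methods (analysis of variance with Tukey) after adjustment, 748 rose and 637 fell. Under that test 37 list counts moved by as much. Where a count from Cy5 alone moved that far, it stands beside the list if the count was at least 3. In the authors' table of log2 ratios 20 of 164 named genes had differences over 1.5 times as large, and none that much smaller. Of 51 named genes with several probes, 30 had all probes called the same way.

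**Figure D1:**
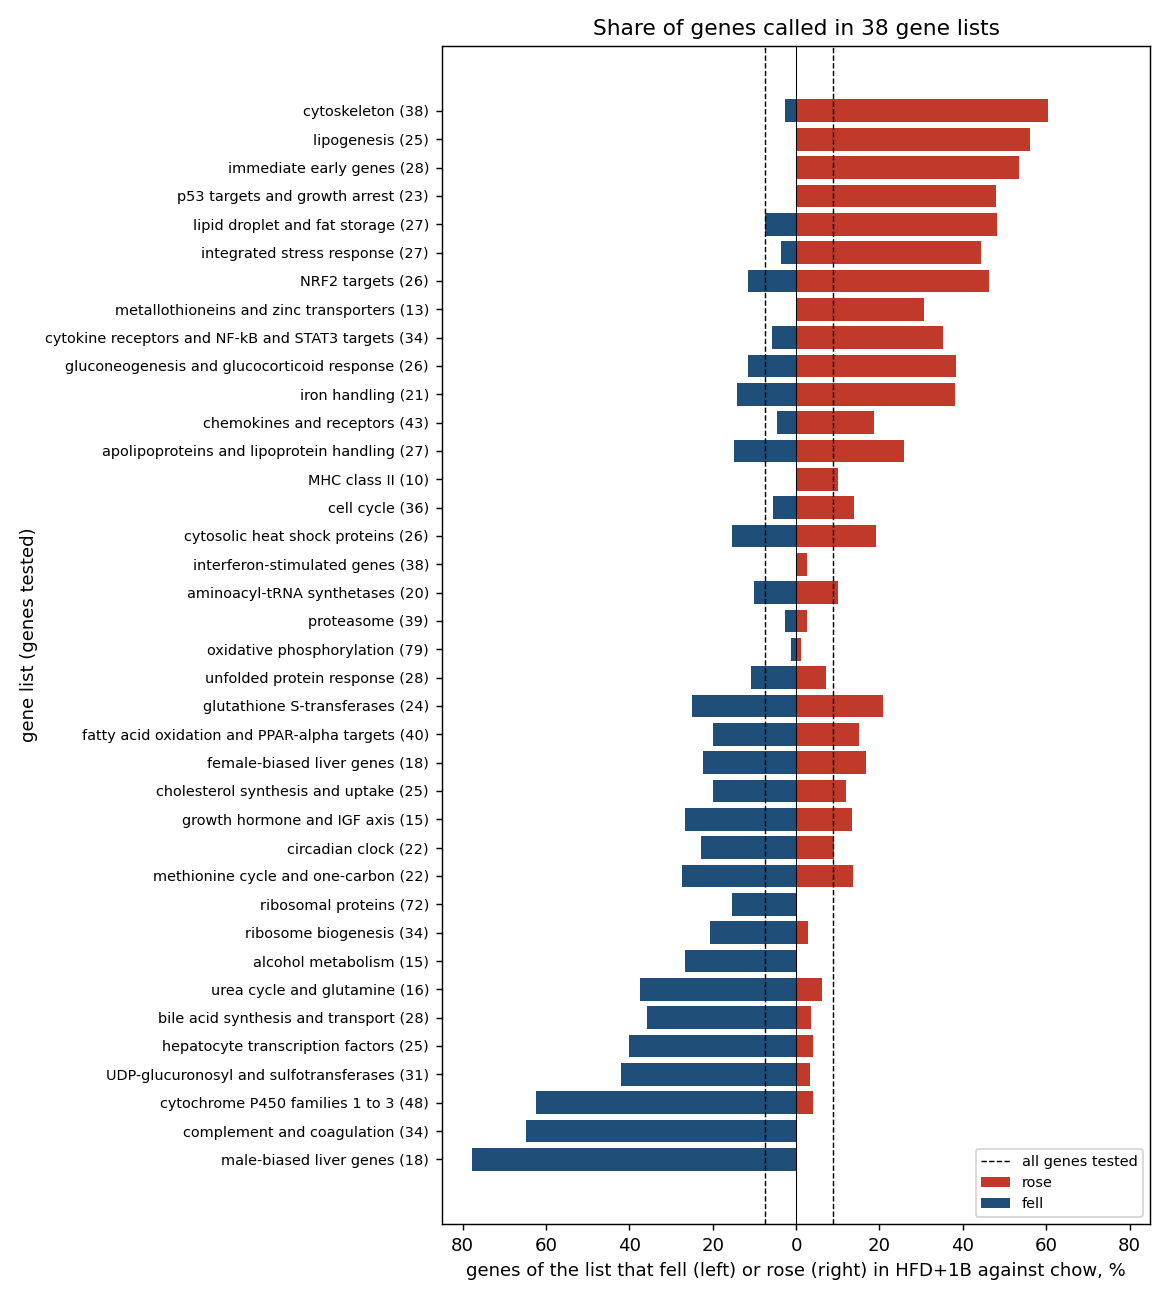
Share of the tested genes of each list, in percent, that rose (to the right) or fell (to the left) in HFD+1B against chow at an adjusted p of 0.05 or less; dashed lines mark the shares over all genes, 8.89% and 7.40%. Cytoskeleton, lipogenesis and immediate early genes lean furthest to the right, and male-biased genes, complement and coagulation, and P450 enzymes furthest to the left.

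Outside the acute phase, fibrosis and collagen lists, which are not described here, the largest rises belonged to fat handling, metal binding and growth arrest. Apoa4, an apolipoprotein of triglyceride-rich particles, rose by 5.22 (SE 0.40, adjusted p = 4.29e-07), and Mt2 and Mt1, the metal-binding metallothioneins, by 5.14 and 4.93. Next came Cdkn1a, the cell cycle inhibitor p21, at 4.03, and Cidec, which enlarges lipid droplets, at 3.72. The surface antigen Ly6d (3.30), the tight junction protein Cldn14 (3.28), the membrane-binding Anxa2 (3.20), the ADP-ribosyltransferase Tiparp (3.19) and the endothelial hyaluronan receptor Lyve1 (3.19) completed the 10 largest. Igfbp1, which binds insulin-like growth factors and was chosen after its values were seen because 1 chow value was missing, rose by 4.76 (SE 0.39, adjusted p = 3.50e-06).

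The largest falls were in genes of specialised hepatocyte function. Keg1 fell by 3.59 on the log2 scale (SE 0.34, adjusted p = 2.68e-06). Below zero stood also the P450 gene Cyp2c54 at -3.23, the organic anion transporter Slco1a1 at -3.21 and Cyp7b1, the oxysterol hydroxylase of the alternative bile acid pathway, at -2.93. Mup8 (-2.76) and Mup2 (-2.73) encode urinary pheromone carriers, and C8b (-2.75) a subunit of the complement membrane attack complex. Upp2, a uridine phosphorylase (-2.73), Cyp1a2 (-2.68) and Igfbp2 (-2.63) followed. The Mup and Cyp2c genes have near-identical copies, so which member a probe measured is uncertain. From Cy5 alone Mup8 stood at -1.48 and Mup2 at -0.85. A fall of Hsd3b5, a male-biased steroid dehydrogenase chosen after its values were seen, is described with its group.

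Metallothioneins hold zinc and copper and are switched on through metal response elements, short promoter motifs bound by MTF1. Because Mt2 and Mt1 changed most among genes of known metal response, the stretches before their start sites are printed from RefSeq (build GRCm38.p6, forward strand), ending at the last base before the start. Capitals mark matches to TGCACNC or TGCGCNC, searched on both strands over 250 bases.
Mt2, chr8:94172368-94172617: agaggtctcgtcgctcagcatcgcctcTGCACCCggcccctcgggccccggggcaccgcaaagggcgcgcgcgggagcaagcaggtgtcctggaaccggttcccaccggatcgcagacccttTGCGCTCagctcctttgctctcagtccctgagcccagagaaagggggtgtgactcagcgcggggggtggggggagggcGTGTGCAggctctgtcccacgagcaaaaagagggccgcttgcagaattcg
Mt1, chr8:94178989-94179088: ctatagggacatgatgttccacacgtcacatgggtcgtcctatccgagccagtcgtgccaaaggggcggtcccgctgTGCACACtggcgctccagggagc
Over the 250 bases searched, Mt2 held 3 matches and Mt1 held 1, and only the last 100 of these bases are printed for Mt1. Sequence after the annotated start was not searched. Among 32851 promoters, 21.4% held at least 1 match and 1.26% held 3 or more, so a single match is common. A match is a description and does not show a bound site.

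Relative to the chow mean, Mt2 stood at 0.85, -0.02, -0.33 and -0.51 in the 4 chow mice and at 5.40, 4.63, 5.35, 5.22 and 5.08 in the 5 HFD+1B mice. The groups were far apart, a 35.2-fold difference in the mean ratio. Against chow Mt2 stood at 2.63 after ethanol alone and 0.60 after HFD alone, and HFD+1B exceeded each of them, by 2.50 and 4.53 (limma adjusted p = 0.00816 and 7.08e-05). For Mt1 the values were 0.78, 0.24, -0.53 and -0.50 in chow and 5.46, 4.55, 4.97, 4.89 and 4.77 in HFD+1B, and its difference of 4.93 was 3.18 from Cy5 alone. Of 13 metallothionein and zinc transporter genes tested, 4 rose and none fell. The others that rose were the zinc importer Slc39a14 (1.76) and Slc30a10. Mt3 and Mt4, which are expressed mainly outside the liver, stood at -0.06 and 0.01. Of 11 list members with a promoter in the table, 7 held the motif and Mt4 was among them.

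**Figure D2:**
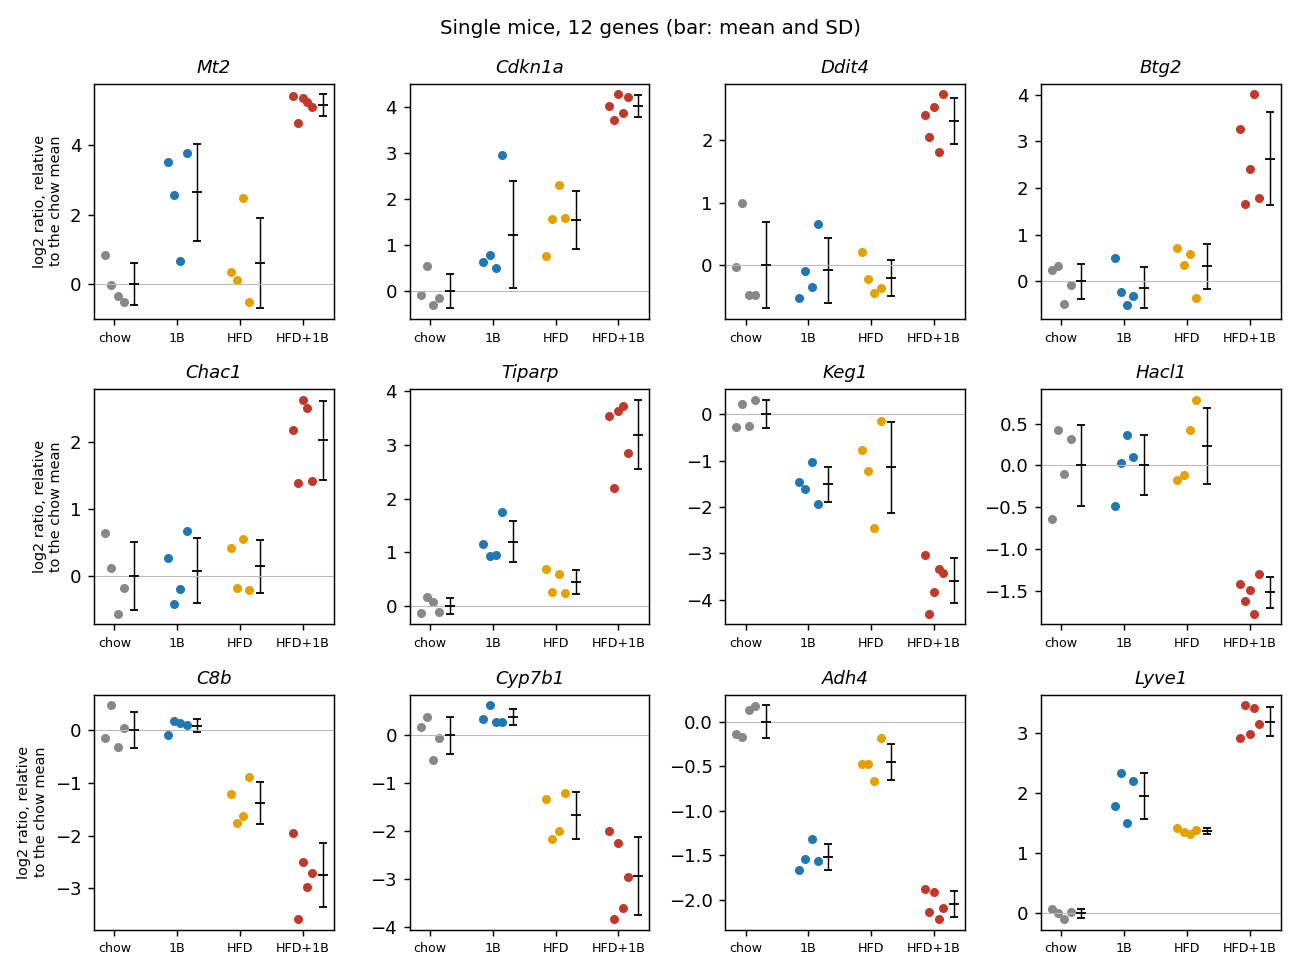
Log2 ratio of liver to reference, relative to the mean of the 4 chow mice, in single mice of the 4 groups for 12 genes; each point is 1 mouse and each line a group mean. In each panel the 5 HFD+1B mice lie apart from the 4 chow mice, and in Ddit4, Btg2 and Chac1 they lie above both single-insult groups.

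Of 27 lipid droplet and storage genes, 13 rose and 2 fell, with a median of 0.63, against 0.06 in 1B and 0.46 in HFD. Cidec stood at -0.78, -1.04, 1.09 and 0.73 in chow and 2.72, 4.28, 3.64, 3.83 and 4.11 in HFD+1B mice. No HFD+1B mouse overlapped the chow range. Its difference was 1.14 in 1B and 3.44 in HFD, and HFD+1B minus HFD was 0.28 (adjusted p = 0.71). Plin4, a perilipin of the droplet surface, rose by 2.66 (adjusted p = 0.000101) and Cidea, a partner of Cidec, by 2.20 (adjusted p = 6.30e-06).

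Of 25 lipogenic genes, 14 rose (7 from Cy5 alone) and none fell, and the median was 0.62, against 0.52 in 1B and 0.51 in HFD. Thrsp, a nuclear regulator of lipogenesis, rose by 2.60, and the stearoyl-CoA desaturase Scd1 by 2.46 (adjusted p = 3.07e-06 and 0.00118). For the elongase Elovl5 the chow mice stood at -0.50, -0.61, 0.91 and 0.19 and the HFD+1B mice at 1.76, 2.50, 2.27, 2.08 and 2.45. Me1, the malic enzyme that supplies NADPH, rose by 0.97 but lost its call without chow mouse 1 or 2 or HFD+1B mouse 2 (adjusted p up to 0.107). With the test of the methods after adjustment, 6 of the 14 passed.

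Genes that release or burn fat did not move 1 way. Among 40 genes of fatty acid oxidation and PPAR-alpha targets, 6 rose and 8 fell (5 from Cy5 alone). Ucp2, a mitochondrial carrier, rose by 2.04 (adjusted p = 5.70e-05), and by 1.31 over the mean of its probes. The cytosolic acyl-CoA thioesterase Acot1 stood at -1.34, -0.79, 1.11 and 1.03 in chow and -1.39, -1.82, -1.71, -2.11 and -1.38 in HFD+1B mice. Its peroxisomal relative Acot4 stood at -1.66 for the group difference, but a second Acot4 probe stood at -0.63 (limma adjusted p = 0.131). Acot1 fell (adjusted p = 0.00816), and against chow it stood at -1.81 in 1B and 0.15 in HFD. The list median was near 0 in HFD+1B, -0.57 in 1B and 0.38 in HFD, and leaving out 1 chow mouse turned its sign in HFD+1B.

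Lipoprotein genes divided likewise, with 7 of 27 up (4 from Cy5 alone) and 4 down. Apoa4 stood at -0.39, 0.06, 0.27 and 0.06 in chow mice, at 2.29, 1.98, 2.22 and 2.57 in 1B, at 5.04, 6.11 and 4.68 in the 3 HFD mice with a value and at 3.90, 6.28, 4.42, 5.95 and 5.57 in HFD+1B mice. The HFD+1B mice overlapped the HFD mice. The difference between those groups was -0.05 (adjusted p = 0.953). Apoc2, the cofactor of lipoprotein lipase, rose by 1.71, and Abca1, which exports cholesterol, by 1.56, the latter also above each single insult. In cholesterol synthesis and uptake, 3 of 25 genes rose (1 from Cy5 alone) and 5 fell. The sterol oxidase Msmo1 stood at -1.35 (adjusted p = 0.000175) and the reductase Tm7sf2 at -0.97 (adjusted p = 0.00134). The count of 5 was 3 without chow mouse 2, 3 or 4.

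Enzymes of ethanol clearance fell or did not pass. Of 15 genes, none rose and 4 fell (2 from Cy5 alone), and without chow mouse 3 or 4 or HFD+1B mouse 2 or 4 only 2 fell. Adh4, an alcohol dehydrogenase active on retinol and long-chain alcohols, stood at -0.14, -0.17, 0.13 and 0.18 in chow and -1.88, -2.14, -1.91, -2.21 and -2.08 in HFD+1B mice. All 5 HFD+1B mice lay below all chow mice (adjusted p = 6.64e-09), and Adh4 was also below 1B, by -0.52, and HFD, by -1.59. Cyp2e1, the ethanol-oxidising P450, had values of 0.53, -0.46, 0.05 and -0.11 in chow and -0.41, -1.32, -0.46, -1.79 and -1.21 in HFD+1B mice (difference -1.04, adjusted p = 0.00561), with 2 HFD+1B mice inside the chow range. Adh1, the main hepatic alcohol dehydrogenase, stood at -0.20 (adjusted p = 0.284) and mitochondrial Aldh2 at 0.20 (adjusted p = 0.573). Cat, catalase, stood at -0.42 but lost its call without chow mouse 1, 3 or 4 or HFD+1B mouse 2 or 4.

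Of 26 NRF2 targets, 12 rose and 3 fell, with a median of 0.43, but from Cy5 alone 3 rose and 1 fell. The carbonyl reductase Cbr3 rose by 1.39 (adjusted p = 0.00155) and Hmox1, which breaks down heme, by 0.89 (adjusted p = 0.00286, 0.48 over the mean of its probes). Several of those that rose, such as Me1, also make NADPH for lipogenesis and stand in both lists. Moving the other way, Osgin1, an oxidative stress response gene, stood at 0.31, 0.60, -0.51 and -0.40 in chow and -2.74, -1.29, -1.73, -0.68 and -1.68 in HFD+1B mice, and fell also below 1B and HFD. Nqo1, a standard NRF2 reporter, stood at 0.36 (adjusted p = 0.166) and Gclc at -0.05 (adjusted p = 0.878). The count of 12 was also 7 under median centring. Of 21 iron genes, 8 rose and 3 fell, including Hmox1 and Slc39a14, which also imports iron. The transferrin receptor Tfr2 stood at -0.70 (adjusted p = 0.000365). Without chow mouse 3, 5 iron genes rose, 5 rose under median centring, and from Cy5 alone 2 rose and 1 fell.

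The integrated stress response, in which phosphorylated eIF2-alpha favours translation of ATF4, showed a divided picture. Of 27 genes 12 rose and 1 fell, and 7 stood above each other group. Ddit4, an inhibitor of mTORC1, had values of -0.03, 0.99, -0.48 and -0.48 in chow, -0.53, -0.10, -0.36 and 0.65 in 1B mice, 0.20, -0.22, -0.44 and -0.37 in HFD mice and 2.39, 2.06, 2.53, 1.81 and 2.73 in HFD+1B mice. The 5 HFD+1B mice were separate from all 12 others. Its difference was 2.30 against chow, 2.39 against 1B and 2.51 against HFD (adjusted p = 2.66e-05, 4.83e-05 and 3.37e-05). Chac1, which degrades glutathione, stood at 0.63, 0.12, -0.57 and -0.18 in chow and 2.17, 1.38, 2.62, 2.50 and 1.41 in HFD+1B mice, and the secreted Gdf15 rose by 1.92 (adjusted p = 1.34e-05). In contrast, the ATF4 targets Asns, which makes asparagine, and Trib3 stood at 0.01 and 0.02, and Ddit3, the factor CHOP, at 0.02 (adjusted p = 0.975, 0.967 and 0.952).

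ATF4 and its partners bind composite elements of the form TGATGNAA. Genes of the list whose promoters held it are shown for Chac1 and for Atf3 and Fgf21, both chosen after their values were seen. RefSeq sequence (GRCm38.p6) is printed 5′ to 3′ on the gene's strand, up to the last base before the start, with the match in capitals, here TTGCATCA, which is the motif read on the other strand.
Chac1, chr2:119350992-119351241, forward: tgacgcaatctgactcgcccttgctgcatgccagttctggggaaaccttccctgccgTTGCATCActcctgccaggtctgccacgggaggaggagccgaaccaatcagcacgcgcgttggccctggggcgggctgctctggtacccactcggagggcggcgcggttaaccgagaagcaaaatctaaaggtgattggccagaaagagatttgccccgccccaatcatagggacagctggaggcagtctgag
Atf3, chr1:191183334-191183483, reverse: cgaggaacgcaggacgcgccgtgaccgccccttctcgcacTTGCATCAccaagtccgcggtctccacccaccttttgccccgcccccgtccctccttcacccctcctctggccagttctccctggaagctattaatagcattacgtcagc
Fgf21, chr7:45615491-45615640, reverse: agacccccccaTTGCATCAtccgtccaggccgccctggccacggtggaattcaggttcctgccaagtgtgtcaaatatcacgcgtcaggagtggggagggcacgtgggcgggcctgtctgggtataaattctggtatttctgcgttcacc
Among all promoters 3.45% held the motif, and 7 of the 24 list members with a promoter in the table did. These 7 were Asns, Atf3, Chac1, Fgf21, Nupr1, Slc7a11 and Vldlr. Of these 7, Asns and Slc7a11 (-0.04) did not pass and the others rose, and no test of change against the motif was made. The stress factor Atf3 rose by 1.48 and the hepatokine Fgf21 by 1.57 (adjusted p = 0.000115 and 0.00232).

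The unfolded protein response list hardly moved as a group. Of 28 genes 2 rose and 3 fell (none from Cy5 alone), with a median of -0.16, against 0.54 in 1B. Of the genes that passed, Atf6, a sensor of unfolded proteins, lost its call without chow mouse 2, 3 or 4 or HFD+1B mouse 2, and Derl1 without chow mouse 1. Herpud1 lost it without chow mouse 1, 2 or 3 or HFD+1B mouse 1, 3 or 4. Hspa5, the chaperone BiP, stood at -0.23 (adjusted p = 0.664). Among 26 cytosolic heat shock genes 5 rose and 4 fell (2 and 1 from Cy5 alone). The small heat shock proteins Hspb1, chosen after its values were seen, and Hspb8 rose by 1.54 and 0.93, and the chaperone Hsp90aa1 by 0.92 (adjusted p = 0.0006, 0.000246 and 0.00161). Hsph1, a large cochaperone, stood at -1.65, -1.44, -1.48, -0.23 and -1.39 in HFD+1B mice. Mouse 4 was apart from the others there, and the call (adjusted p = 0.0229) was lost without chow mouse 2 or 4 (adjusted p up to 0.0917).

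Immediate early genes respond within minutes to signals and stress. Of 28, 15 rose and none fell, with a median of 0.55, and 11 stood above each other group. The count of 15 was 12 when probes had to be well above background on all 17 arrays. The immediate early factor Fos, described below, passed the background filter only through the HFD+1B arrays, so a call of Fos is a description only. Btg2, an antiproliferative gene and p53 target, stood at 0.25, 0.33, -0.49 and -0.09 in chow and 3.26, 1.67, 2.41, 4.01 and 1.78 in HFD+1B mice. Every HFD+1B mouse was above every chow mouse. In 1B and HFD its difference from chow was -0.13 and 0.33, and HFD+1B exceeded both (adjusted p = 0.000207 and 0.000703). The transcription factors Egr1 and Klf6 rose by 2.60 and 2.06 (adjusted p = 1.45e-05 and 1.19e-06). Myc stood at -0.19 (adjusted p = 0.533).

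Of 23 p53 targets and growth arrest genes 11 rose (6 from Cy5 alone) and none fell. Cdkn1a stood at -0.09, 0.54, -0.30 and -0.15 in chow, 0.63, 0.79, 0.51 and 2.97 in 1B mice, 0.76, 1.57, 2.31 and 1.59 in HFD mice and 4.03, 3.71, 4.28, 3.88 and 4.22 in HFD+1B mice. The fold against chow was 16.3, and HFD+1B exceeded 1B by 2.80 and HFD by 2.47 (adjusted p = 0.000215 and 0.000478). Gadd45g, a growth arrest gene, rose by 2.56 (adjusted p = 0.000134). The p53 targets Mdm2 and Bbc3 stood at -0.04 and -0.23 (adjusted p = 0.892 and 0.531). Of 36 cell cycle genes 5 rose and 2 fell. Tk1, a thymidine kinase, stood at -2.22 (adjusted p = 1.25e-06) and the mitotic cyclin Ccnb2 at 0.77 (adjusted p = 0.000946), while Mki67 stood at 0.40 (adjusted p = 0.0551). The count of 5 was 3 without chow mouse 1 or 2 or HFD+1B mouse 5, and 0 from Cy5 alone.

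Fasting-type genes of gluconeogenesis and glucocorticoid response rose in 10 of 26 cases and fell in 3. Igfbp1 stood at 0.06, -0.34 and 0.27 in 3 chow mice and at 5.46, 3.81, 5.13, 5.16 and 4.25 in the 5 HFD+1B mice, with no overlap. HFD+1B exceeded 1B by 3.96 and HFD by 4.85 (adjusted p = 3.92e-05 and 2.81e-05). Sds, a serine dehydratase that feeds glucose synthesis, had values of 0.47, 0.06, -0.48 and -0.05 in chow and 2.17, 1.30, 2.33, 2.19 and 2.53 in HFD+1B mice. Tat, a tyrosine aminotransferase induced by glucocorticoids, stood at 1.43 against chow but at -1.36 in HFD and -0.65 in 1B (adjusted p = 0.00819, 0.0345 and 0.478). Got1, an aspartate aminotransferase, rose by 1.73 (adjusted p = 0.000305). G6pc, the last enzyme of glucose release, stood at 0.42 (adjusted p = 0.695).

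In the urea cycle and glutamine list 1 of 16 genes rose and 6 fell (2 with the test of the methods after adjustment). Hal, which breaks down histidine, stood at -1.41, Prodh, which oxidises proline, at -1.06 and the glutamate transporter Slc1a2 at -0.86 (adjusted p = 0.000783, 0.00367 and 0.00509). Cps1, the first urea cycle enzyme, stood at -0.55 (adjusted p = 0.25). Among 22 genes of the methionine cycle 3 rose and 6 fell. Mat2a, the methionine adenosyltransferase of growing cells, rose by 1.14 (adjusted p = 7.94e-05), and Ahcy, which removes S-adenosylhomocysteine, stood at 0.13, 0.01, -0.10 and -0.04 in chow and -0.86, -1.79, -0.75, -1.23 and -1.40 in HFD+1B mice. The HFD+1B mice lay below the chow mice in Ahcy (adjusted p = 7.80e-05). Nnmt, a nicotinamide methyltransferase, stood at 1.53 (adjusted p = 0.0131), with the call lost without chow mouse 3 or 4 (adjusted p up to 0.0573).

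Sex-biased genes moved unevenly. The male pattern of the mouse liver is kept by pulses of growth hormone. Of 18 male-biased genes none rose and 14 fell, with a median of -1.28, against 0.08 in 1B and -0.78 in HFD. In single mice the list median ran from -0.12 to 0.07 in chow and from -1.84 to -1.02 in HFD+1B. Hsd3b5 stood at -0.24, -0.20, -0.11 and 0.54 in chow, -1.33, -1.80, -0.64 and -2.57 in 1B mice, -3.78, -4.69, -5.40 and -3.19 in HFD mice and -5.02, -5.87, -5.29, -5.49 and -5.44 in HFD+1B mice. It fell by 5.42 on the log2 scale (SE 0.38, adjusted p = 1.30e-07), but its signal was well above background on 3 of the 5 HFD+1B arrays, against all 4 chow arrays, and in the authors' table its difference was -8.19, so its size is uncertain. Selenbp2, a selenium-binding protein, and Slco1a1 stood at -2.57 and -3.21 (adjusted p = 2.88e-06 and 0.000121). Chosen after their values were seen, the fatty acid hydroxylase Cyp4a12b, the growth factor receptor Egfr and the complement regulator Susd4 stood at -2.17, -1.61 and -1.33 (adjusted p = 2.90e-06, 7.17e-05 and 5.05e-05). Elovl3 stood at -1.05 (adjusted p = 0.0822).

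**Figure D3:**
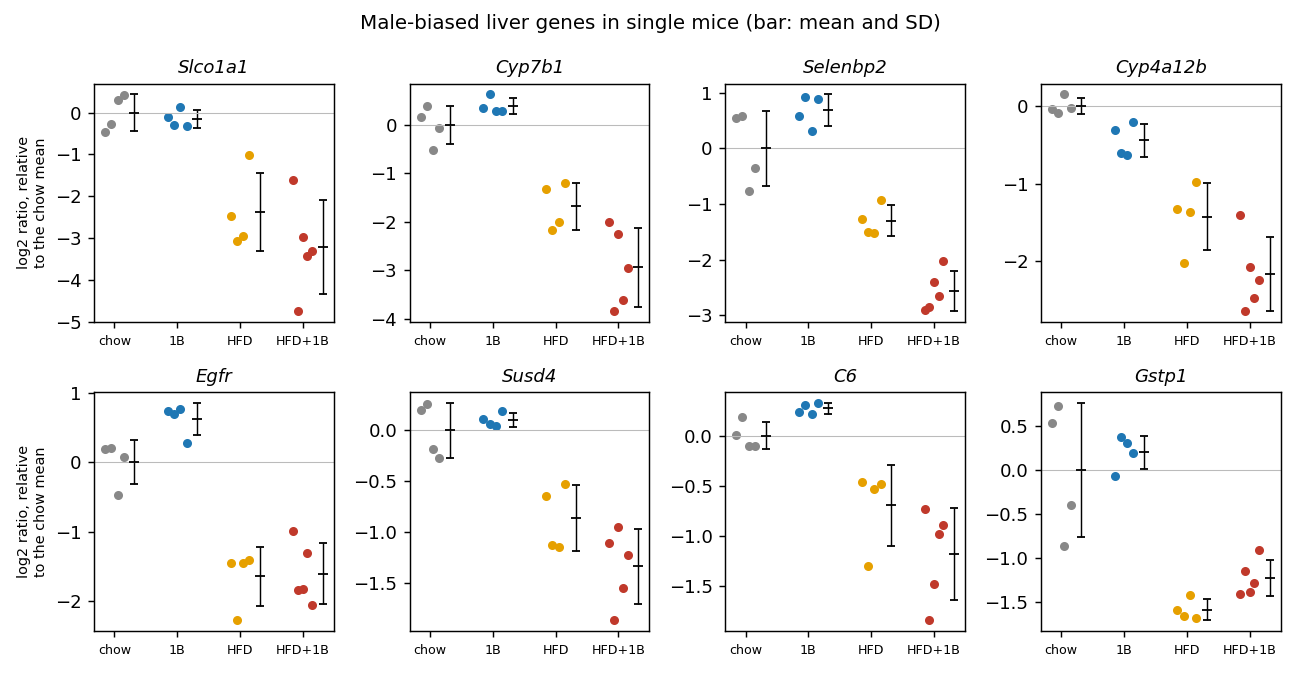
Log2 ratio relative to the chow mean for 8 male-biased genes, with 1 point per mouse and a line per group mean. In these 8 genes, which were drawn from those that fell, the HFD+1B mice lie low.

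Female-biased genes did not rise as a list, with 3 of 18 up and 4 down. Cyp2b9 rose by 1.57 (adjusted p = 1.73e-05), whereas Cyp3a41a and Cyp3a16, near-identical P450 genes whose probes may not tell them apart, stood at -1.63 and -1.58 (adjusted p = 1.63e-05 and 6.12e-06). Of 15 genes of the growth hormone and IGF axis 2 rose and 4 fell. Igfals, the liver-made partner of circulating IGF-1, stood at -1.57 and the factor Onecut1 at -1.62 (adjusted p = 2.95e-06 and 0.00548). Igfbp2 stood at 0.01, 0.03, -0.16 and 0.12 in chow and -2.31, -2.94, -1.86, -3.45 and -2.60 in HFD+1B mice, the reverse of Igfbp1. Igf1 and the growth hormone target Socs2 stood at -0.26 and 0.06 (adjusted p = 0.186 and 0.948).

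Of 48 P450 genes of families 1 to 3, 30 fell and 2 rose, with a median of -0.62, against -0.11 in 1B and -0.25 in HFD. Cyp1a2, which oxidises caffeine, stood at -0.01, 0.05, -0.22 and 0.18 in chow and -2.09, -2.92, -2.15, -3.22 and -3.0 in HFD+1B mice, and Cyp2c29, of a near-identical family, at -2.39 for the difference (adjusted p = 4.29e-07 and 6.18e-06). Both genes that rose, Cyp2b9 and Cyp2b13, are female-biased. Of 31 glucuronosyl- and sulfotransferases 13 fell and 1 rose. The bile acid sulfotransferase Sult2a8 and Ugt2b1 stood at -2.38 and -1.61 (adjusted p = 0.000125 and 0.0004), while Sult1e1, which inactivates oestrogen, rose by 2.23 (adjusted p = 2.66e-05). Glutathione S-transferases moved both ways, with 5 of 24 up and 6 down (3 up without chow mouse 4 and 2 from Cy5 alone). Mgst3 rose by 1.02, and Gstp1 and Gstt2 stood at -1.23 and -1.03 (adjusted p = 0.00278, 0.00147 and 0.000139). Over the mean of its probes Mgst3 stood at 0.60, and from Cy5 alone Gstp1 stood at -0.81.

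Of 28 bile acid genes 10 fell and 1 rose. Cyp7b1 stood at 0.17, 0.39, -0.51 and -0.06 in chow and -1.99, -3.84, -2.26, -3.62 and -2.96 in HFD+1B mice. The HFD+1B mice were below both single-insult groups on average, by 1B and HFD differences of -3.32 and -1.26 (adjusted p = 5.24e-06 and 0.0111). Cyp7a1, the rate-limiting enzyme of the classical pathway, chosen after its values were seen because 1 chow value was missing, stood at 0.53, 0.03 and -0.56 in 3 chow mice and -1.92, -2.02, -2.18, -2.58 and -1.86 in HFD+1B mice (difference -2.11, adjusted p = 2.33e-05). The gene that rose was Slc10a2, a bile acid importer, at 1.94 (adjusted p = 6.30e-06). The 12-alpha-hydroxylase Cyp8b1 stood at -0.46 (adjusted p = 0.148).

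Transcription factors that maintain hepatocytes fell in 10 of 25 cases and rose in 1. The xenobiotic receptor Nr1i3 (CAR) stood at -0.07, -0.41, 0.30 and 0.19 in chow and -1.63, -1.34, -1.28, -2.01 and -1.55 in HFD+1B mice. The repressor Nr0b2 (SHP), which curbs bile acid synthesis, stood at -1.43 (adjusted p = 0.000546). Hnf4a, a central member of the network, stood at -0.11 (adjusted p = 0.718). Cebpa, chosen after its values were seen, stood at -1.08 (adjusted p = 0.0408), but lost its call without chow mouse 1, 2, 3 or 4, 1B mouse 3, HFD mouse 4 or HFD+1B mouse 1, 2, 3 or 4 (adjusted p up to 0.101), and with slide as a block (adjusted p = 0.0514). A second Cebpa probe stood at -1.26 (adjusted p = 2.67e-06).

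Complement and coagulation genes, most of them secreted by hepatocytes, fell in 22 of 34 cases and none rose. The median was -0.50, against -0.07 in 1B and -0.22 in HFD. C8b stood at -0.16, 0.46, -0.33 and 0.03 in chow, -0.09, 0.17, 0.14 and 0.09 in 1B mice, -1.22, -1.77, -1.63 and -0.90 in HFD mice and -1.96, -3.58, -2.50, -2.98 and -2.70 in HFD+1B mice. The 5 HFD+1B mice had the lowest values of the 17. Klkb1, plasma prekallikrein, and C6 stood at -1.25 and -1.18 (adjusted p = 0.000117 and 0.000475). Prothrombin, F2, stood at -0.07 (adjusted p = 0.724). The count of 22 was 13 from Cy5 signal alone.

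**Figure D4:**
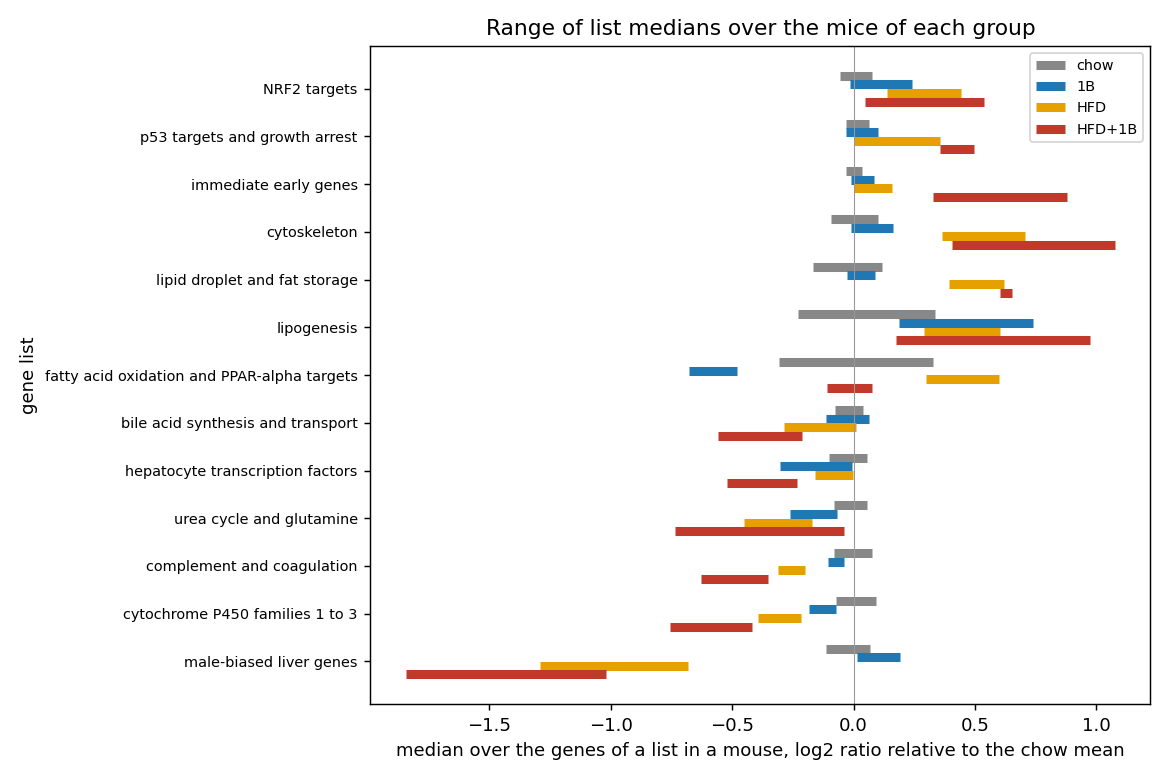
Range over mice of the median log2 ratio (relative to the chow mean) of 13 gene lists in each group, with bars from the lowest to the highest mouse. The male-biased, P450, and complement and coagulation lists of HFD+1B mice lie below those of chow mice, and the cytoskeleton and lipid droplet lists above.

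Clock output genes also differed. Of 22 clock genes 2 rose and 5 fell (3 from Cy5 alone). Dbp and Tef, related output factors that peak late in the day, stood at -2.12 and -0.92 and their antagonist Nfil3 at 1.37 (adjusted p = 0.000228, 0.000289 and 0.000107). Per2 and Clock stood at 0.03 and 0.22 (adjusted p = 0.946 and 0.304). All livers came from 1 interval after gavage, so phase and level cannot be told apart.

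Cytoskeletal genes had the largest share of rises among the lists described here. Of 38, 23 rose and 1 fell, with a median of 0.72, against 0.08 in 1B and 0.53 in HFD, and 10 stood above each other group. Anxa2 stood at -0.23, 0.29, 0.18 and -0.24 in chow and 2.11, 3.73, 2.54, 4.07 and 3.54 in HFD+1B mice, with all HFD+1B mice above all chow mice. Against chow it stood at -0.12 in 1B and 2.67 in HFD. Cytoplasmic actin Actg1 rose by 2.37 and the calcium-binding S100a11 by 2.33 (adjusted p = 9.76e-06 and 0.000738). The hepatocyte keratins Krt8 and Krt18, a pair that forms filaments and that was chosen after its values were seen, rose by 1.70 and 1.55 (adjusted p = 2.79e-06 and 0.000408).

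Cytokine receptor and NF-kB or STAT3 target genes rose in 12 of 34 cases (7 from Cy5 alone) and fell in 2. The interleukin 1 receptor Il1r1 stood at 0.25, 0.35, -0.35 and -0.25 in chow and 2.49, 1.18, 2.19, 1.88 and 1.64 in HFD+1B mice, and the factor Cebpd rose by 1.32 (adjusted p = 0.000482 and 9.65e-05). Lifr, the receptor of leukemia inhibitory factor, stood at -0.25, 0.30, -0.15 and 0.10 and -1.67, -2.28, -1.98, -2.33 and -2.03 in the same groups. Its HFD+1B mice were below all chow mice (adjusted p = 4.29e-07). That was the brightest of 5 Lifr probes, and the others stood at 0.00, -0.03, -0.58 and -0.51, with -0.64 for the mean over probes. The cytokines Tnf and Il1b stood at -0.29 and 0.17 (adjusted p = 0.073 and 0.221). Of 43 chemokines and receptors 8 rose (4 from Cy5 alone) and 2 fell. Cxcl1, which draws neutrophils, and Ccl6 rose by 2.61 and 2.30, and Cxcl12, a stromal chemokine, stood at -1.87 (adjusted p = 0.000168, 2.68e-06 and 4.87e-06). Of 10 genes of MHC class II presentation 1 rose, the protease Ctss (1.24, adjusted p = 0.00652). Of 38 interferon-stimulated genes 1 rose, the peptide transporter Tap1, which lost its call without chow mouse 3 or 4 or HFD+1B mouse 1 or 4.

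Of the 10 hepatocyte markers 2 rose, Fgb, which is also an acute phase gene, and Ahsg, and Serpinc1 fell, while Rbp4 lost its call without chow mouse 1, 3 or 4 or HFD+1B mouse 1, 2 or 4. Ahsg stood at 0.63 on the ratio but at -0.0208 from Cy5 signal alone. Markers of other cells moved in part. For macrophages and Kupffer cells 5 of 19 rose and none fell. Cd68, a lysosomal protein, Cd9 and Spp1 rose by 1.37, 1.85 and 1.84, while C1qa lost its call without chow mouse 3 or 4 or HFD+1B mouse 2 or 4 and C1qb without chow mouse 3. The Kupffer cell markers Clec4f and Vsig4 and the pan-macrophage Adgre1 stood at 0.32, 0.00 and 0.22 (adjusted p = 0.102, 0.996 and 0.494). The summed marker level, with the chow mean at 1, ran from 0.879 to 1.16 in chow and from 1.00 to 1.99 in HFD+1B. For neutrophils 5 of 22 rose and 2 fell, with S100a9 at 1.04 and Csf3r, the receptor of the growth factor G-CSF, at -1.04 (adjusted p = 0.0047 for Csf3r). S100a8 was well above background on no chow array and on all 5 HFD+1B arrays, and was at least 2.63-fold higher in HFD+1B. Mpo and Elane stood at -0.16 and -0.04. Of the others that passed, Mmp8 lost its call without chow mouse 1, 2, 3 or 4, 1B mouse 1, 2 or 3, HFD mouse 2 or 4 or HFD+1B mouse 1 or 5, Itgb2 without chow mouse 2, 3 or 4, 1B mouse 2, HFD mouse 2 or HFD+1B mouse 2, 4 or 5 and Ctsg without chow mouse 1 or 3 or HFD+1B mouse 2 or 4. The summed level was 0.816 to 1.08 in chow and 0.688 to 1.24 in HFD+1B. Of 12 stellate cell markers 5 rose and none fell, with Dcn and Lrat both at 1.04, Pdgfrb at 0.61 and Des at 0.58, and Rgs5 lost its call without chow mouse 1 or 3 or HFD+1B mouse 5. The summed level ran from 0.748 to 1.17 and from 0.824 to 1.35. None of 9 B cell, 9 pancreatic or 5 adipocyte markers passed. In T and NK cells 1 of 10 rose, Ccl5 (0.85), while a second Ccl5 probe stood at 0.31 and did not pass. In cholangiocytes 1 of 12 rose, Spp1, and in erythroid cells 1 of 6, Hba-a1, which has a near-identical copy. Hba-a1 lost its call without chow mouse 2, 3 or 4, 1B mouse 3, HFD mouse 4 or HFD+1B mouse 1, 3, 4 or 5. Spp1 stands in both the macrophage and the cholangiocyte list. Of the 3 probes of the cholangiocyte marker Sox9, the brightest did not pass (0.28) and the other 2 were called higher (1.15 and 0.65). Among markers that were not tested were Ly6g, Clec4d, Timd4, Mmp12, Lck, Gzma and Gzmb. The part of such cells in the results above was not tested.

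Endothelial markers moved in both directions, with 6 of 27 up and 4 down. Lyve1 stood at 0.08, 0.00, -0.10 and 0.02 in chow, 1.78, 2.34, 1.50 and 2.20 in 1B mice, 1.42, 1.35, 1.32 and 1.38 in HFD mice and 2.92, 3.46, 2.99, 3.41 and 3.15 in HFD+1B mice. It was higher in HFD+1B than in chow (adjusted p = 1.03e-09), by 1.23 than in 1B and by 1.82 than in HFD. Cdh5, the adhesion molecule of endothelial junctions, and Nos3, the endothelial nitric oxide synthase, rose by 0.78 and 0.93 (adjusted p = 0.00038 and 8.82e-05), and Vcam1, an adhesion molecule for leukocytes, by 0.93 (0.40 over the mean of its probes). Sele, E-selectin, was well above background on no chow array and was at least 1.27-fold higher in HFD+1B. Sele passed the background filter only through the HFD+1B arrays, so its call is a description only. Conversely Kdr, the main VEGF receptor, and the sinusoidal nuclease Dnase1l3 fell, at -1.05 and -1.45 (adjusted p = 2.16e-05 and 7.68e-06). The sinusoidal lectin Clec4g stood at -0.82, with 1 of its 3 probes called in the other direction, and 2 of the 4 probes of Flt1, whose brightest probe did not pass, were called higher. Oit3 lost its call without chow mouse 1, 2 or 3, 1B mouse 2, HFD mouse 2 or 4 or HFD+1B mouse 1, 3 or 4 and Selp without chow mouse 2, 3 or 4 or HFD+1B mouse 1 or 4. Pecam1 and the scavenger receptor Stab2 stood at 0.24 and 0.10 (adjusted p = 0.229 and 0.616). The summed level was 0.897 to 1.14 in chow and 0.938 to 1.11 in HFD+1B.

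**Figure D5:**
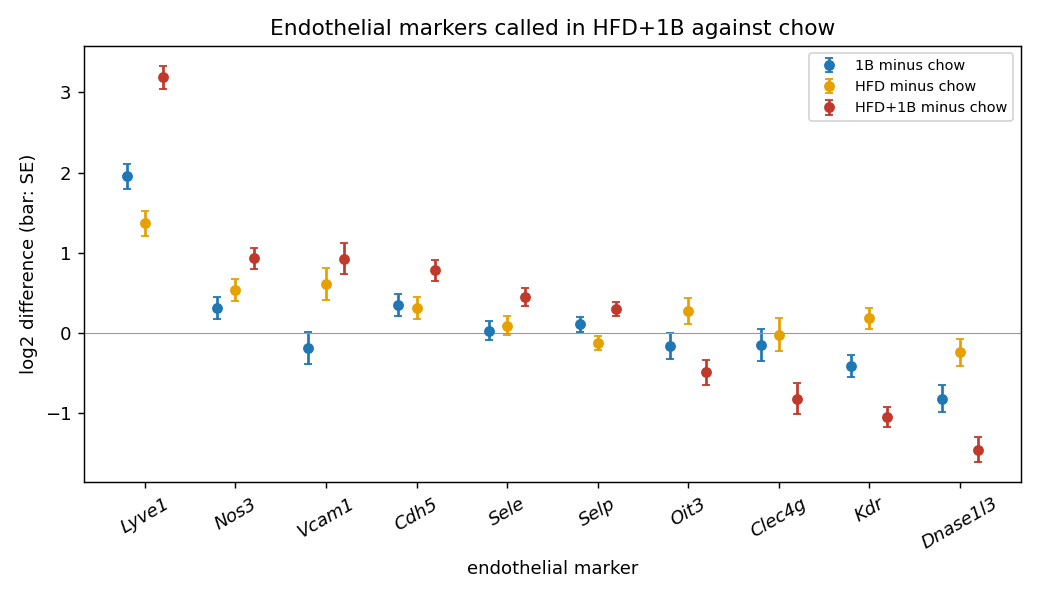
Log2 difference from chow (with SE) in 1B, HFD and HFD+1B for the 10 endothelial markers that were called in HFD+1B against chow. Lyve1 is highest in HFD+1B and Kdr and Dnase1l3 are lowest there.

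Housekeeping lists moved little or depended on the scaling. Of 79 oxidative phosphorylation genes 1 rose, the cytochrome oxidase subunit Cox7a1, and 1 fell, Ndufs8. Of 39 proteasome genes 1 rose, Psmd8 (1.02, adjusted p = 8.22e-06), and 1 fell, Psma4, which lost its call without chow mouse 2, 3 or 4 or HFD+1B mouse 4 or 5. Of 72 ribosomal protein genes none rose and 11 fell, but 7 fell without chow mouse 2, 6 fell under median centring, and 3 fell from Cy5 alone. Rps27 stood at -0.67 (adjusted p = 0.000862). In ribosome biogenesis 1 of 34 rose, Rrp1b, with 1 of its 4 probes called in the other direction, and 7 fell, among them the nucleolar Npm1 (-0.53) and Wdr12 (-0.46). That count was 2 without chow mouse 2, 3 or 4, 3 without HFD+1B mouse 1 or 4, and 1 under median centring or from Cy5 alone. Of 20 aminoacyl-tRNA synthetases 2 rose and 2 fell (none from Cy5 alone), with Tars at 0.75 (adjusted p = 0.00112), while Cars lost its call without chow mouse 1, 3 or 4 or HFD+1B mouse 2, 4 or 5 and Eprs without chow mouse 1, 2 or 4, 1B mouse 3, HFD mouse 2 or 4 or HFD+1B mouse 2, 3 or 4.

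Among genes that stood apart from each other group, those with the widest margins beyond Mt2, Cdkn1a, Ddit4 and Btg2 were Cldn14 on the high side and Keg1, BC024137, Hacl1, C8b and Tmem25 on the low side. Cldn14 stood at -0.12, 0.59, -0.34 and -0.13 in chow and 4.61, 1.77, 3.98, 3.71 and 2.32 in HFD+1B mice, and HFD+1B exceeded 1B by 2.26 and HFD by 2.86 (adjusted p = 0.00238 and 0.0003). Keg1 stood at -0.27, 0.21, -0.25 and 0.31 in chow, -1.47, -1.62, -1.04 and -1.93 in 1B mice, -0.77, -1.22, -2.45 and -0.14 in HFD mice and -3.03, -4.30, -3.84, -3.35 and -3.42 in HFD+1B mice. No HFD+1B mouse overlapped another group in Keg1. Hacl1, a peroxisomal lyase of alpha-oxidation, stood at -0.64, 0.43, -0.10 and 0.31 in chow and -1.42, -1.62, -1.49, -1.77 and -1.30 in HFD+1B mice, with differences of 0.00 in 1B and 0.23 in HFD. BC024137 and Tmem25 stood at -2.50 and -2.06 (adjusted p = 2.78e-06 and 4.30e-06).

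Some genes were well above background on all 5 HFD+1B arrays and on no chow array. Of 19348 genes tested, 42 met this with a lower bound above zero, and 11 of them passed. For 1 gene the reverse held. Probes well above background made up 77.4% to 79.3% on chow arrays and 78.2% to 85.9% on HFD+1B arrays. The part of that difference in these counts was not tested. For these genes the difference is only a lower bound, read from Cy5 signal and open to dye bias. Ccdc120 was at least 1.84-fold higher in HFD+1B, Mtmr11 at least 1.71-fold, Emp1, a membrane protein, at least 1.70-fold, Fos, an immediate early factor, at least 1.46-fold and Slc7a6, an amino acid transporter, at least 1.39-fold. Adjusted p-values in limma were 0.000327 for Ccdc120 and 0.00741 for Emp1. Mtmr11, Fos and Slc7a6 passed the background filter only through the HFD+1B arrays, where they are high. Their p-values are therefore not given, and the count of 11 is a description only. In the other direction Vmn1r234, a vomeronasal receptor gene, was at least 1.38-fold lower (adjusted p = 0.0171), and it lost that call without chow mouse 1.

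The 5 HFD+1B mice did not respond to the same extent. Over 516 genes that changed at least 2-fold with values in every mouse of both groups, mouse 1 was nearest to the chow mean in 200 genes and mouse 4 in 25. Mouse 4 was farthest from it in 187. The median size of the difference from the chow mean was 1.27 in mouse 1 and 1.62 in mouse 4, and between 1.38 and 1.40 in the other 3. Since the genes were chosen for their change in these mice, the values describe the spread only.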

How the data were processed

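Liver RNA of 17 mice was measured on 2-color Agilent arrays, 1 array per mouse, on 5 slides, with liver in Cy5, the common reference in Cy3 and no dye swap. The authors scanned the arrays with Feature Extraction 11.5.1.1, and the deposited scanner files hold raw spot intensity and local background for 45018 spots. The authors also deposited a table of log2 ratios, and these values were checked against the processed signals of the scanner files, whose log2 ratios they are. No value column was left unassigned (0).

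Intensities were corrected with normexp (offset 50), outlier spots were dropped, loess was applied to the log2 ratios of each array, and repeat spots were averaged per probe. Ratios of dim probes are compressed by the offset. Probes whose Cy5 signal exceeded background on 4 or more arrays (the scanner's well-above-background mark) were tested with lmFit and eBayes in limma 3.58.1 (R 4.3.3) on group means of all 17 arrays, without covariates, with adjustment over 34650 probes. The brightest probe stood for a gene, and 35356 probes had a gene symbol, 28378 by accession. Arrays give no counts, so their number limits the precision. The fit was tested on simulated data.

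The comparisons, gene lists and members were chosen with earlier results of these data known. Named genes were, per list, up to 3 with the largest difference that passed and were well above background on all arrays of both groups, the 10 largest rises and falls, the 5 widest margins over or under each other group, the 5 largest bounds, and the markers. The acute phase, fibrosis and collagen lists were set aside. Lists were described by counts and medians, with no set test. Alternatives were no background correction, median centring, Cy5 signal alone, the authors' table, other filters on dim probes, and outlier spots kept. Further ones were the 9 arrays alone, slide or replicate number as a block, and the analysis of variance with Tukey of the methods. Fold thresholds, the mean over probes, and each mouse left out were also used. Leaving out all HFD arrays was added after seeing the data. Promoters came from a RefSeq table.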

Additional observations from a re-analysis of the deposited data

Results flagged for a closer look

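A single mouse lay far from the rest of its group in 18 of 400 gene and group pairs examined, where chance alone gives about 20. The gap to the nearest mouse, as a share of the group's whole range, was the measure. In HFD+1B mice this share was 0.803 for Atf3 and 0.816 for Hsph1 (mouse 4 highest), 0.852 for Clec4g (mouse 4 lowest), 0.798 for Atf6 (mouse 2 highest), 0.728 for BC024137, 0.787 for Hspb8 and 0.712 for Sds (mouse 2 lowest in each), 0.728 for Fgb (mouse 1 highest), and 0.742 for Tmem25 (mouse 5 highest). The median of the methionine cycle list was highest in HFD+1B mouse 3, with a share of 0.939. In chow mice the share was 0.892 for Cyp3a41a and 0.855 for Pdgfrb (mouse 1 highest), 0.836 for Npm1 and 0.892 for Slc7a6 (mouse 1 lowest), 0.834 for Hsd3b5 (mouse 4 highest), 0.846 for Spp1 (mouse 3 highest), 0.856 for Ugt2b1 (mouse 3 lowest) and 0.874 for the median of the cell cycle list (mouse 2 highest).

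The effect of ethanol on HFD differed from its effect on chow, by the interaction term of limma (adjusted p no higher than 0.05), in 19 of the 164 genes examined, and in 850 of all 19348 genes tested (4.39%). The difference between the effects was positive in 12. On the log2 scale it was 4.05 for Igfbp1, 3.44 for Tat, 3.38 for Insig1, 2.60 for Ddit4, 2.46 for Sds and 2.43 for Btg2. Smaller differences were 1.81 for Chac1, 1.66 for Got1, 1.56 for Tiparp, 1.43 for Slc10a2, 1.26 for Gdf15 and 1.17 for Klf6. Negative differences were -2.32 for Apoa4, -1.94 for Selenbp2, -1.77 for Cyp7a1, -1.75 for Hacl1, -1.44 for C8b, -0.82 for Kdr and -0.76 for Tars. In Igfbp1 ethanol gave 4.85 on HFD and 0.80 on chow, and in Tat 2.79 on HFD and -0.65 on chow. In Insig1, which restrains sterol synthesis, the effects were 1.73 on HFD and -1.65 on chow. These genes were selected for their change in HFD+1B, so the share of 19 in 164 is a description only, and the low ribosomal RNA on HFD arrays touches each of them, its part not tested.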

How the results depend on the processing

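Of 164 named genes called, 105 kept direction and call under every alternative that gave them a value, 32 for 99 of them and 31 for 6, and 1 turned its sign (Ahsg, -0.0208 from Cy5 alone). For genes higher and lower than chow, and higher and lower than each other group, the counts were 1721, 1432, 381 and 307. They became 688, 581, 129 and 56 from Cy5 alone, and 748, 637, 91 and 67 with the test of the methods after adjustment. With a fold of at least 2 they were 354, 232, 81 and 27 at an unadjusted p, and 352, 229, 77 and 25 at an adjusted p. Median centring left 815 lower than chow and 76 lower than each other group. Without the HFD arrays, an alternative chosen after seeing the data, 786 and 529 genes stood above and below both remaining groups, by construction with 1 comparison fewer. The causes of the other moves were not tested. Leaving out 1 mouse gave 1282 to 1826, 1084 to 1517, 244 to 457 and 185 to 343. With a replicate block the counts were 1894, 1719, 486 and 450. Same-numbered chow and HFD+1B mice correlated at 0.24, -0.08, 0.08 and 0.15. The highest correlation of each chow mouse with another HFD+1B mouse was 0.02, 0.14, 0.13 and 0.05. These mixed values cannot settle whether the numbers pair the samples. The replicate block ended the calls of 6 named genes. Chow and HFD+1B mice on the same slide correlated at 0.24, 0.14, 0.10 and -0.05. With slide as a block the counts were 1895, 1599, 454 and 373, and 4 named genes lost their call (Cars, Cebpa, Eprs and Itgb2). Dim signal limits small changes.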
